A study of Drosophila melanogaster with 4 samples.

Results

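The genes Sxl, tra and msl-2 of Drosophila melanogaster carry the splicing decisions that separate female from male development, and their splicing was read in whole larvae with mutations in Smn and in wild type larvae. The members were all annotated splicing events that lie inside these 3 genes and all their exon bins. They came to 17 of 31994 events, of which 12 lay in Sxl, 3 in tra and 2 in msl-2, and to 40 of 70463 exon bins. Introns of Sxl that start upstream of the interval used were no members. Of the 17 events, 15 were retained introns and 2 were skipped exons, and none was an alternative 5′ or 3′ splice site event or a pair of mutually exclusive exons. Wild type larvae were of the strain Oregon R, and mutant larvae carried the genotype given as SmnX7/D. Larvae of both groups were taken at 74 ± 2 h after egg laying, from cultures kept at 24 ± 1 °C, with 2 polyadenylated RNA libraries per group. The survival motor neuron protein, product of Smn, assembles the small nuclear ribonucleoproteins of the spliceosome. The sex of the larvae is not given in the labels, so a difference in the share of males among the larvae and a difference in splicing within a sex cannot be told apart. In whole animals, fewer cells of a type and less RNA per cell cannot be told apart either.

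Sxl, an RNA binding protein, is the switch gene of the pathway. In flies with a pair of X chromosomes it is turned on early, and its protein then keeps its own messenger RNA productive by making the spliceosome skip the male exon, which holds stop codons. Sxl protein also directs the splicing of tra to a female 3′ splice site, and tra protein, with tra2, directs the splicing of dsx and fru. In females Sxl protein binds the untranslated regions of msl-2 messenger RNA, keeps an intron of its 5′ untranslated region in place and blocks translation, while in males msl-2 protein forms the dosage compensation complex with the roX RNAs on the X chromosome.

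The sequences at these sites show what the splicing machinery chooses between. They were read from the dm6 assembly with RefSeq chromosome sequences, on the minus strand, while all event positions in the text are dm3 positions from the authors' event names. The male exon of Sxl has 2 forms in the annotation, of 190 and 172 bases, which differ by the 3′ splice site used at their start. The first sequence, at chrX:7088698-7088797 of dm6, spans the end of the intron before the exon and the start of the exon. Its capitals mark the AG before each form and the stop codon that ends the reading frame.
Sxl male exon: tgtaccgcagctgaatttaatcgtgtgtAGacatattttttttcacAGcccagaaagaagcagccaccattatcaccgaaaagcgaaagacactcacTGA
In the annotation, transcripts that join exon 2 to the male exon have 144 coding bases with the 190-base form, as in Sxl-RB, and 126 with the 172-base form, as in Sxl-RK. Sxl-RE and Sxl-RA, which hold the 190-base and the 172-base form but not exon 2, have 942 coding bases each. Sxl-RD, which skips the exon, has 1062.

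The first intron of tra has 2 alternative 3′ ends. The non-sex-specific site ends a 73-base intron at chr3L:16590931-16590960 of dm6, and the female site ends a 248-base intron at chr3L:16590756-16590785, with the final AG of each in capitals.
tra non-sex-specific site: agtgccatctttttgttgttttttttctAG
tra female site: attgactaaccgcacactcttttcacatAG
In the annotation tra-RA, which uses the female site, has 591 coding bases and tra-RB, which uses the non-sex-specific site, has 108. The non-sex-specific 3′ end holds a run of 8 T, the letters TTTTTTTT, and the window of the female site holds none. Of 7490 annotated introns within 10% of the length of the 73-base intron, 3.8% hold TTTTTTTT in the sense of the RNA and 1.5% hold it on the other strand. Neither tra intron holds it on the other strand.

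The first intron of msl-2, of 133 bases, lies in the 5′ untranslated region and is spliced in msl-2-RB and kept in msl-2-RA. It has 2 T runs, printed as the windows at chr2L:3466022-3466051 and chr2L:3465927-3465956 of dm6, with the runs in capitals.
msl-2 first intron, start: gtaaTTTTTTTTTTTagttgctaatttatt
msl-2 first intron, end: aaaccaaTTTTTTTTTTTTTTTTgcacgtg
The longer run has 16 T, and 7.3% of 1652 annotated introns of like length hold TTTTTTTT in the sense of the RNA and 3.4% on the other strand, where this intron has none. A run of these letters is a description of the sequence and not a measurement of binding.

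The libraries gave 19232740 to 29046972 read pairs over retained intron events, with wild type replicate 2 the lowest. In spliced read pairs the 2 wild type libraries stood further apart than the 2 mutant libraries. The root mean square differences were 1.25 and 0.45 log2 units. These pairs were not scaled for depth, so the values include the differences in depth. For isoform ratios of retained introns the differences were nearer to each other, at 1.34 and 1.08 log2 units. Smn itself has a single exon bin in the tables and no event among those used, so the targeted gene was not checked here. Nothing in the labels says that replicates came from separate cultures, so p-values measure the spread between these libraries, which may be technical.

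Sxl read pairs that leave exon 2 were split between the male exon and exon 4, and the male exon took a larger share of these pairs in both mutant libraries than in either wild type library. The female join, from exon 2 straight to exon 4, was seen in 18 and 21 read pairs in wild type replicates 1 and 2 and in 10 and 4 in mutant replicates 1 and 2. Both wild type values lay above both mutant values. Exon 2 joined the 190-base form of the male exon in 4 and 16 pairs in wild type and in 25 and 22 pairs in the mutants. Exon 2 joined the 172-base form in 4 and 8 pairs in wild type and in 11 and 9 pairs in the mutants. Wild type replicate 2 is the shallowest library, so the counts were also scaled to 1000000 spliced pairs of their library. The 190-base form then had 1.72 and 8.94 in wild type and 10.4 and 9.39 in the mutants, without overlap. The 172-base form had 1.72 and 4.47 in wild type and 4.60 and 3.84 in the mutants, where the groups overlapped. Wild type replicate 1 was the lowest for both forms. The female join had 7.72 and 11.7 in wild type and 4.18 and 1.71 in the mutants on this scale, again without overlap.

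**Figure D1:**
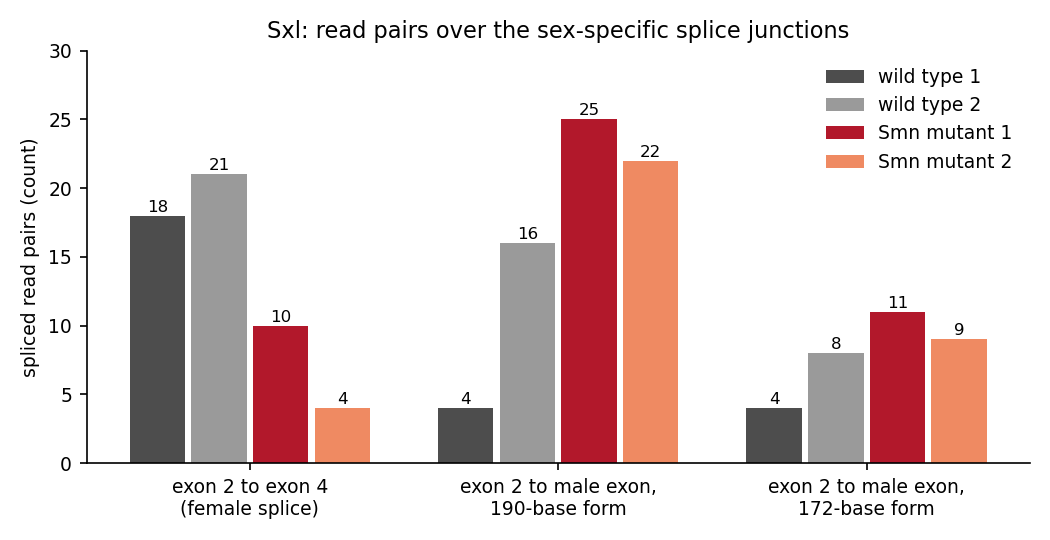
Bars give the number of read pairs that span each splice junction leaving Sxl exon 2 in the 4 libraries, for the female splice and for both forms of the male exon. The female splice has 18 and 21 pairs in wild type against 10 and 4 in the mutants, and the 190-base form has 4 and 16 against 25 and 22.

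The male exon took 30.8% of the pairs leaving exon 2 in wild type replicate 1, 8 of 26, with a 95% exact Clopper-Pearson interval of 14.3 to 51.8%. In wild type replicate 2 it took 53.3%, 24 of 45, with an interval of 37.9 to 68.3%. In mutant replicate 1 it took 78.3%, 36 of 46, with an interval of 63.6 to 89.1%, and in mutant replicate 2 it took 88.6%, 31 of 35, with an interval of 73.3 to 96.8%. The groups did not overlap, and the means were 42.0% ± 15.9 (SD, n = 2) and 83.4% ± 7.28 (SD, n = 2), a difference of 41.4 percentage points. A two-sided exact permutation test gave p = 0.33, which is the smallest value that 2 libraries against 2 allow. Each interval covers counting error within a library and not the spread between libraries. It takes read pairs as independent, and where they are not, it is too narrow. The share counts junction pairs only and is not the fraction of Sxl RNA that holds the male exon. The authors' posterior mean of inclusion for the 190-base form was far lower, at 0.07 and 0.16 in wild type and 0.23 in both mutants. Why the 2 measures differ in size was not tested.

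Within the male exon, the upstream 3′ splice site, which makes the 190-base form, took 4 of 8 and 16 of 24 male joins in wild type and 25 of 36 and 22 of 31 in the mutants. In the replicates other than wild type 1 these are 66.7%, 69.4% and 71.0%, and the interval of wild type replicate 1, from 15.7 to 84.3%, includes all of them. Both mutant shares lay above both wild type shares, with means of 58.4% ± 11.8 (SD, n = 2) and 70.2% ± 1.13 (SD, n = 2). The exact permutation p was 0.33, again the smallest possible. At this depth a difference in the choice between the 2 sites could not be told from counting error.

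The authors' event for the 190-base form compares pairs specific to inclusion with pairs specific to skipping. There were 5 and 20 wild type inclusion pairs and 33 and 29 in the mutants, against 18, 21, 10 and 4 skipping pairs in the same order. The ratio of inclusion to skipping was higher in the mutants by 2.57 on the log2 scale (SE 0.718), with an adjusted p of 0.331 in limma, so the event was not called. Of 939 skipped exons tested, 0% were called and 12.7% had an unadjusted p under 0.05, so an unadjusted p of this size was common. The authors' posterior mean of inclusion was 0.07 and 0.16 in wild type and 0.23 in both mutants, with an interval of 0.15 to 0.32 in each mutant. Its Bayes factor, the authors' ratio of evidence for a difference between a pair of libraries, was 50.05 and 11.71 for wild type replicate 1 against the mutants. Against wild type replicate 2 it was 0.3 and 0.29. For a call, all 4 pairings had to reach a Bayes factor of 10 and differ by 0.2 or more in 1 direction. No member met that rule, beside 0.644% of all skipped exons and 0.77% of all retained introns.

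The 172-base form had 5 and 11 inclusion pairs in wild type and 17 and 15 in the mutants, with the same skipping pairs, and posterior means of 0.07, 0.1, 0.13 and 0.13. It had under 20 isoform-specific pairs in mutant replicate 2 and was not in the fit. Both forms had higher posterior means in both mutants, which 21.0% of all skipped exons did. They share the skipping pairs and part of the exon, so they are not independent.

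The long intron around the male exon was also scored as a retained intron. The unspliced intron from exon 2 to exon 4, chrX:6981693-6985706 in dm3 and 4014 bases long, held 88 and 69 wild type pairs and 140 and 169 mutant pairs. Pairs from the male exon count as retained here, as do pairs from unspliced RNA. The ratio of these pairs to the female join was higher in the mutants by 2.24 on the log2 scale (SE 0.528), with an adjusted p of 0.139 in limma. Over the alternatives this change ran from 0.384, with the logit of the posterior mean, to 3.27, without mutant replicate 1, and the adjusted p from 0.0675 to 0.718. The posterior mean of retention was 0.06 and 0.03 in wild type and 0.05 and 0.06 in the mutants, so the groups overlapped on that measure.

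The retained pairs of the introns before the male exon, 68 and 51 in wild type and 107 and 140 in the mutants for the 172-base form, were set against the male joins. The log2 change was 0.44 (SE 0.543, adjusted p = 0.669 in limma) for the 172-base form and 0.14 (SE 0.678, adjusted p = 0.92 in limma) for the 190-base form. Neither was called, and without wild type replicate 2 the second was -1.59. After the male exon, the join to exon 4 was seen in 0 and 1 pairs in wild type and in 5 and 1 in the mutants, beside 19, 16, 31 and 24 retained pairs. The posterior mean of retention there was 0.64 and 0.35 in wild type and 0.27 and 0.29 in the mutants, each with a wide interval, 0.54 being the upper bound in both mutants. Few pairs supported the splice at the 3′ side of the male exon in any library.

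Downstream of the switch, 2 introns that both sexes remove, of 338 and 101 bases, had fewer spliced read pairs in both mutants, but neither was called. The share of all introns whose spliced pairs separate the groups was not counted, so this separation may be common. The counts of the 1635-base intron between exon 4 and exon 5, given further on, overlapped between the groups. The 338-base intron at chrX:6978853-6979190 had 81 and 73 spliced pairs in wild type and 33 and 37 in the mutants, and 1 or 2 retained pairs in every library. Of every 1000000 spliced pairs of a library these were 34.7 and 40.8 in wild type and 13.8 and 15.8 in the mutants, without overlap. The log2 change was -1.34 (SE 0.333), with an adjusted p of 0.117 in limma. The ratio of retained to spliced pairs of this intron was higher in the mutants by 1.601 on the log2 scale (SE 0.616, adjusted p = 0.261 in limma), and ran from 0.507 to 1.945 over its alternatives. The 101-base intron at chrX:6979551-6979651 had 37 and 23 spliced pairs in wild type and 12 and 13 in the mutants, with 0 retained pairs in all 4 libraries. Its log2 change was -1.40 (SE 0.38, adjusted p = 0.125 in limma). Over all introns the spliced pair fit called 0.181% of 9957 and gave 24.9% an unadjusted p under 0.05, with a median log2 change of 0.24. Of 4 member introns in that fit 0 were called and 3 had an unadjusted p under 0.05. The fourth, from exon 2 to the 190-base male exon, had a log2 change of 1.26 (SE 0.804, adjusted p = 0.368 in limma), which was 0.122 without wild type replicate 1 and 2.403 without wild type replicate 2.

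The last splicing choice of Sxl lies in its last coding exon, from which a 3544-base intron, chrX:6975088-6978631, can be removed to reach coding exons further downstream, as in Sxl-RX. The unspliced form runs on into the usual stop codon and 3′ untranslated region, as in Sxl-RD. The unspliced form had 181 and 294 pairs in wild type and 336 and 341 in the mutants, beside 8, 17, 6 and 10 spliced pairs. The authors' posterior mean of the unspliced form was 0.17 in both wild type libraries and 0.32 and 0.29 in the mutants, so the groups did not overlap. Its log2 ratio was higher in the mutants by 1.096 (SE 0.324), with an adjusted p of 0.19 in limma. Of 11481 retained introns tested, 0.392% were called, 20.5% had an unadjusted p under 0.05, and the median log2 change was 0.59. Of 6 member introns tested 0 were called and 2 had an unadjusted p under 0.05.

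The intron between exon 4 and exon 5 of Sxl, in its 1635-base form, had 9, 6, 8 and 4 spliced pairs and 4, 9, 11 and 13 retained pairs, in the order wild type replicates 1 and 2 and mutant replicates 1 and 2. Its 1659-base form was listed in 3 libraries, without wild type replicate 1, and had 0 spliced pairs in each. The early exon, made from the promoter that is active in the young female embryo, joined exon 4 in 0, 0, 0 and 1 pairs. That event's 208, 246, 385 and 415 retained pairs lie over exon 2 and the male exon as well as intron, and its log2 change was -0.34 (SE 0.989, adjusted p = 0.862 in limma).

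**Figure D2:**
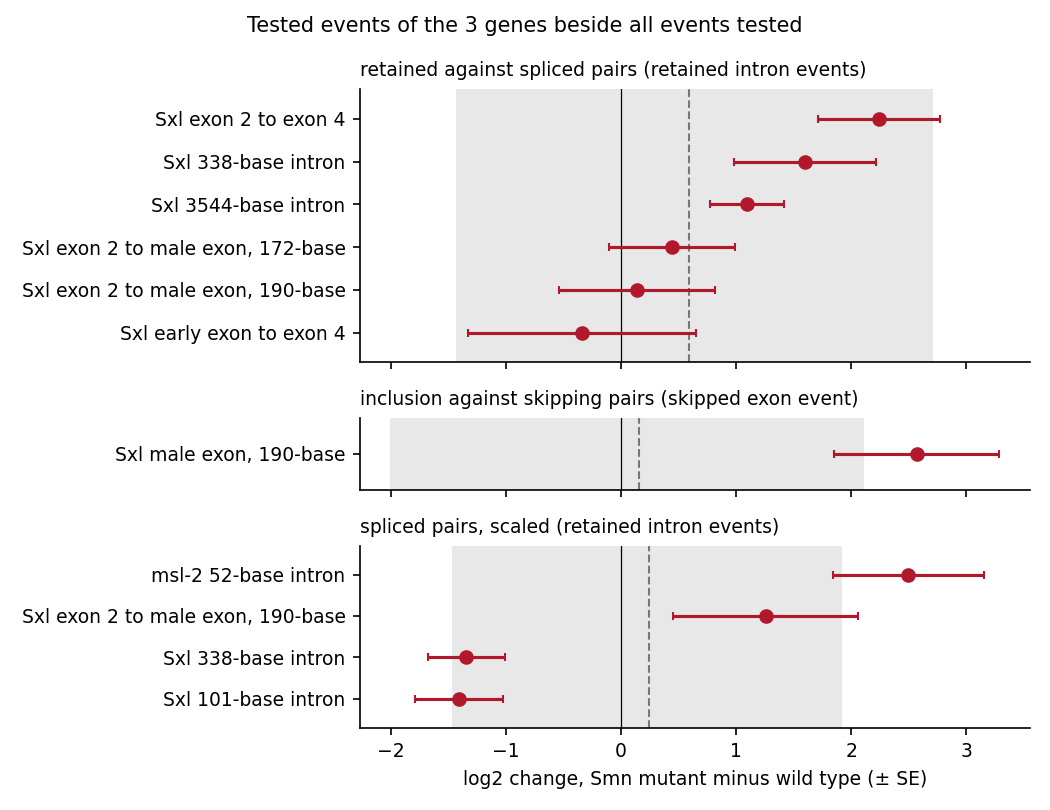
Points give the log2 change from wild type to Smn mutant with its SE for the Sxl and msl-2 events that had enough read pairs for a fit. Grey bands span the 5th to 95th percentile of all events in that fit and dashed lines mark their median, which is 0.59 for retained introns, 0.16 for skipped exons and 0.24 for spliced pairs.

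The Sxl protein acts next on tra, whose full-length protein is made only from the female splice. Joins at the female site, which remove the 248-base intron at chr3L:16583856-16584103 of dm3, were 7 and 9 for wild type and 5 and 3 for the mutants. Joins at the non-sex-specific site, which remove the 73-base intron at chr3L:16584031-16584103, were 3 and 13 for wild type and 4 and 3 for the mutants. The mutant libraries were the lowest for the female join, and wild type replicate 2 stood above the other libraries for the other join.

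The female site took 70.0% of tra joins in wild type replicate 1, 7 of 10, and 40.9% in wild type replicate 2, 9 of 22. It took 55.6% in mutant replicate 1, 5 of 9, and 3 of 6 joins in mutant replicate 2. The groups overlapped, with means of 55.4% ± 20.6 (SD, n = 2) and 52.8% ± 3.96 (SD, n = 2). The exact permutation p was 1.0. The interval of mutant replicate 2 ran from 11.8 to 88.2%, so at this depth a shift of the size seen in Sxl was not detectable in tra.

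The authors' posterior mean for the longer tra intron was 0.44 and 0.53 in wild type and 0.59 and 0.57 in the mutants, which put both mutants above both wild types. The pairs behind it, 12 and 25 in wild type and 18 and 14 in the mutants, overlapped between the groups, and they lie in sequence that is exon in the non-sex-specific form. For the shorter intron the posterior means were 0.28, 0.06, 0.11 and 0.21, without separation. The second tra intron, of 57 bases and common to both forms, had 5, 14, 5 and 5 spliced pairs and 0 retained pairs. No tra event had 20 isoform-specific pairs in every library, so none was in the fit.

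Read pairs of msl-2 were more numerous in both mutant libraries. Its 52-base second intron, chr2L:3463655-3463706 in the coding region, had 7 and 2 spliced pairs in wild type and 34 and 22 in the mutants. Retained pairs were 0 in both wild types and 1 in each mutant. The log2 change of spliced pairs was 2.50 (SE 0.652), with an adjusted p of 0.123 in limma, so the intron was not called. All read pairs of that event, which mostly lie in the exons on either side, came to 11.3 and 11.7 per 1000000 read pairs over all retained intron events in wild type and to 20.8 and 21.5 in the mutants. Both measures put both mutants above both wild type libraries.

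The first intron of msl-2, chr2L:3465919-3466051, which Sxl protein keeps in place in females, had few read pairs. It was retained in 7 and 1 pairs of wild type and in 15 and 8 of the mutants, and spliced in 2, 5, 3 and 7. The retained share was 77.8% and 16.7% in wild type and 83.3% and 53.3% in the mutants. The wild type libraries enclosed mutant replicate 2, and the means of 47.2% ± 43.2 (SD, n = 2) and 68.3% ± 21.2 (SD, n = 2) differed by less than the spread in wild type. The exact permutation p was 0.67. The posterior means were 0.5 and 0.13 in wild type and 0.55 and 0.29 in the mutants, and the only Bayes factor of at least 10 was 13.13, for wild type replicate 2 against mutant replicate 1.

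**Figure D3:**
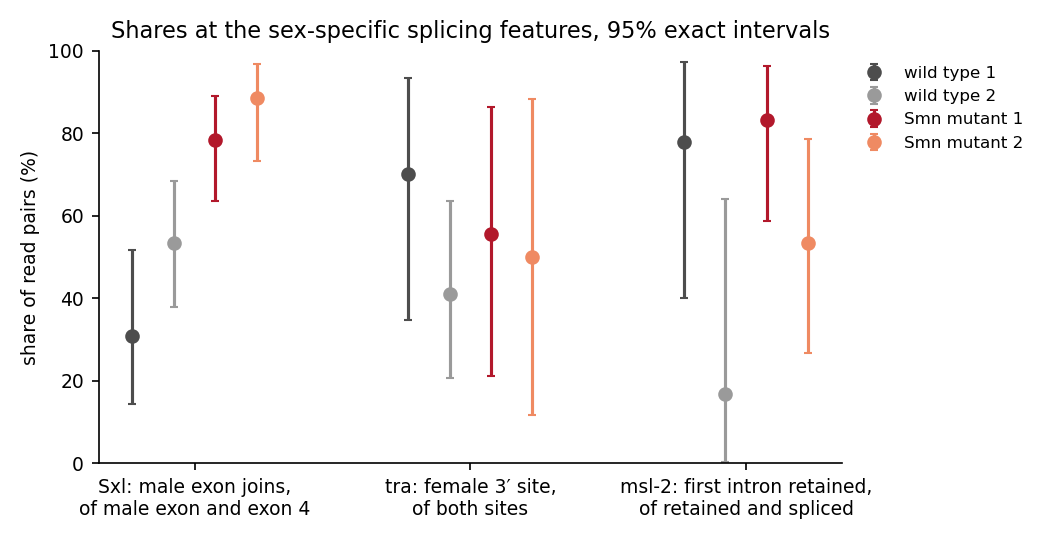
Points give the share of read pairs in percent for each library at the sex-specific features of Sxl, tra and msl-2, with 95% exact intervals. The Sxl male exon share is 30.8% and 53.3% in wild type against 78.3% and 88.6% in the mutants, while the libraries overlap for tra and msl-2.

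Over all 16 events of the 3 genes that were listed in all 4 libraries, posterior means were higher in both mutants for 7 and lower in both for 2, and they overlapped or tied for 7. Of all retained introns, 26.9% were higher in both mutants and 12.2% lower. Of the 14 member introns among the 16 events, 5 were higher and 2 lower, and this count is a description with no test.

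Other RNAs tied to the pathway differed between the libraries too. roX1, an RNA of the dosage compensation complex that accumulates mainly in males, had 61.9 and 148 read pairs per 1000000 over its intron event in wild type and 164 and 146 in the mutants. Wild type replicate 2 thus lay within the mutant range and wild type replicate 1 below it. dsx, the transcription factor gene that tra protein splices, is covered by an event for its male splice, a 5080-base intron that holds the female exon. The male splice had 1 and 0 pairs in wild type and in 3 and 3 in the mutants, and pairs in the intron or the female exon in 96 and 50 and in 32 and 35. The posterior mean of the unspliced form was 0.71 and 0.85 in wild type and 0.42 in both mutants. The log2 change of the ratio was -2.89 (SE 0.571), with an adjusted p of 0.105 in limma. Yp3, a yolk protein gene that female dsx protein activates in adult fat body, had 25.7 and 55.5 read pairs per 1000000 over its 72-base intron event in wild type and 1.82 and 3.18 in the mutants. Its spliced pairs were 79 and 121 for wild type and 7 and 13 for the mutants, a log2 change of -3.50 (SE 0.515, adjusted p = 0.0865 in limma). Whether Yp3 depends on sex in larvae of this age was not tested.

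**Figure D4:**
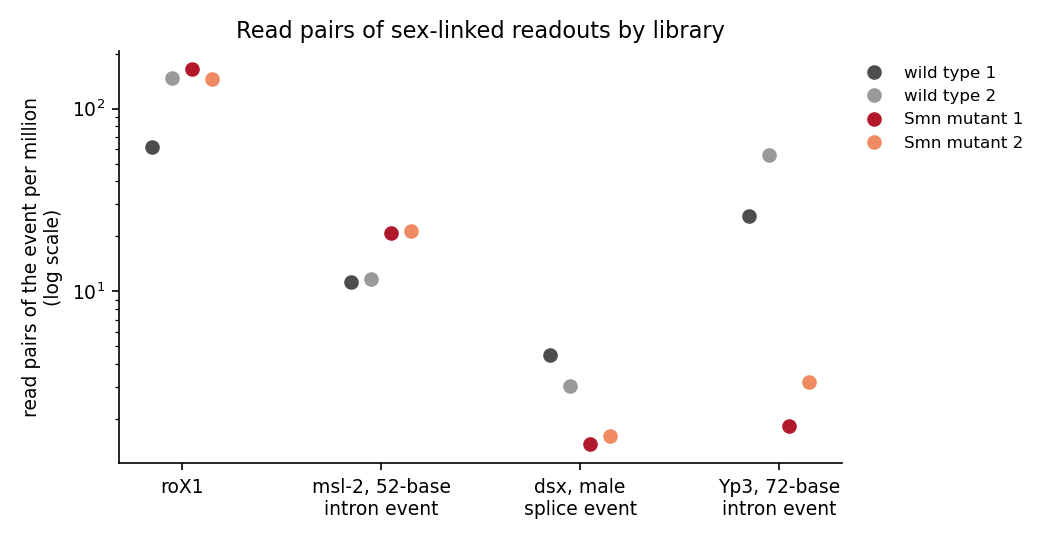
Points give read pairs per 1000000 over retained intron events, on a log scale, for 1 intron event of roX1, msl-2, dsx and Yp3 in the 4 libraries. The mutants are higher for msl-2 and lower for dsx and Yp3, and wild type replicate 2 lies with the mutants for roX1. The dsx points count all read pairs of the event, mostly in the intron or the female exon. Pairs of the male splice itself were 1 and 0 in wild type and 3 and 3 in the mutants.

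Markers of the germ line, where Sxl and its targets are regulated separately, were looked at in the same way. Of 12 germline markers 2, vas and ovo, had an intron event in all 4 libraries, and their 5 events summed to 7.99 and 10.2 read pairs per 1000000 in wild type and to 10.02 and 12.2 in the mutants. vas, the germline helicase, had 1.35 and 1.04 per 1000000 in wild type and 3.13 and 3.57 in the mutants. Each of the 4 events of ovo, a transcription factor gene, overlapped between the groups, with 0.93 to 3.22 per 1000000 over all libraries. The vas event gave 36 of 213 and 20 of 197 germline marker pairs in wild type. In the mutants it gave 91 of 291 and 99 of 337, so the sum mostly follows ovo. Whether the ovo pairs came from the germ line was not tested. Of 3 male soma markers 2, roX1 and msl-2, had such events, with sums of 80.2 and 167 per 1000000 in wild type and 197 and 179 in the mutants. Of 3 yolk protein genes 1, Yp3, had them, with sums of 41.1 and 89.8 in wild type and 3.24 and 5.23 in the mutants. Events with fewer than 20 read pairs are not listed, so no marker can be called 0. The part of the sex or the germ line content of the larvae in the Sxl shares was not tested.

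Exon usage of Smn mutants relative to wild type was taken from the authors' deposited table, where 2.99% of 52485 tested bins had an adjusted p under 0.05. The Sxl bins carry a joint identifier, FBgn0029933+FBgn0003659, neither of which is in the reference used here, and the second was taken as an earlier identifier of Sxl from general knowledge. Reads of both therefore cannot be separated in them. Of 28 such bins, 25 were tested in the authors' deposited table and 2 had an adjusted p under 0.05, both lower in the mutants. Bin 7 had a log2 fold of -0.44 with an adjusted p of 0.0115, and bin 9 had -0.35 with 0.0315, both in the authors' deposited table. Bin 8 between them had -0.40 with an adjusted p of 0.0984 in the authors' deposited table. An unadjusted p under 0.05 was given to 7 of the 25 tested Sxl bins. Bins 7, 8 and 9 of these were lower in the mutants. Bins 1, 2, 21 and 24 were higher, with log2 folds of 1.31, 0.13, 0.78 and 1.04 in the authors' deposited table. The share of all bins with such an unadjusted p was not counted, so 7 of 25 may be common. The largest log2 fold among the bins tested there was 1.502, in bin 23, with a mean normalized count of 2.19 and an adjusted p of 0.564 in the authors' deposited table. The bins carry no coordinates, so they were not assigned to exons here.

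The tra bins are joint with FBgn0027500, the centriole gene spd-2, and msl-2 has bins of its own. An adjusted p under 0.05 was given to 0 of 8 tra bins and 0 of 4 msl-2 bins in the authors' deposited table, and an unadjusted p under 0.05 to 0 of each. Their log2 folds in the authors' deposited table ran from -0.43 to 0.25 in tra and from -0.10 to 0.38 in msl-2. The library kit does not mark strand, so reads of overlapping genes are shared whichever strand they come from.

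**Figure D5:**
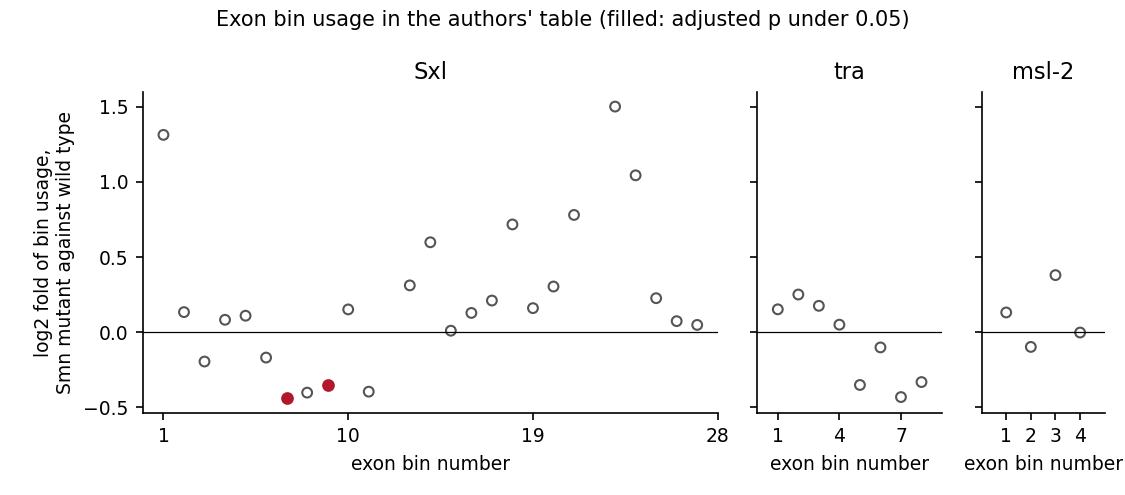
Circles give the log2 fold of exon bin usage, Smn mutant against wild type, for the bins of Sxl, tra and msl-2 that were tested in the authors' deposited table. The 2 filled circles are Sxl bins 7 and 9, at -0.44 and -0.35, and no bin of tra or msl-2 is filled.

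Published larval stages were compared by the authors as well. Larvae at puff stage 1-2 of the third instar, in 3 libraries, were set against the second instar and against the third instar at its hour 12, each in 2 libraries. The share of tested bins with an adjusted p under 0.05 was 1.03% of 48872 and 0.638% of 45304 in these deposited comparisons. Of the member bins, 0 of 25 tested and 0 of 21 tested had one, and 5 and 0 had an unadjusted p under 0.05. Among the 5 were both tested bins of msl-2, with the same p and log2 folds of -0.40 and 0.13 in the authors' deposited table. As usage is relative within a gene, these 2 bins are not independent. How many of all bins had such an unadjusted p was not counted, so 5 of 25 may be common. Sxl bin 1 came nearest in the authors' deposited table, with an adjusted p of 0.0685 against the second instar and a mean normalized count of 2.86. Both stage comparisons use the same puff stage libraries.

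Among 38 other genes of the pathway, 34 had a bin in the mutant table and 28 had one tested, of which 2 had a bin with an adjusted p under 0.05, beside 9.8% of all 9585 genes tested there. These were roX1, whose bin 1 had a log2 fold of 0.88 with an adjusted p of 0.000247 in the authors' deposited table, and gro, a corepressor that acts on the early Sxl promoter. Bin 15 of gro had -0.30 with an adjusted p of 0.0288 in the authors' deposited table. Counted by list, 0 of 2 tested X chromosome signal genes, 1 of 15 Sxl regulators, 0 of 3 genes of the tra branch, 0 of 1 yolk protein gene and 1 of 7 genes of dosage compensation had such a bin, and 0 of 10 germline markers did. In the stage comparisons 0 of 26 and 1 of 25 tested genes had such a bin, beside 3.13% and 1.94% of all genes. That gene was fru, a target of tra protein in the nervous system, whose bin 2 had a log2 fold of -1.01 with an adjusted p of 0.0455 against hour 12 in the authors' deposited table. The msl-2 partners Unr, pAbp and how could not be found by identifier in these tables.

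In intron events 22 of the 38 genes were represented. In limma 0 of 37 isoform ratios and 0 of 35 introns by spliced pairs were called, beside 0.392% and 0.181% over all introns tested. An unadjusted p under 0.05 was given to 7 and 9, beside 20.5% and 24.9% over all introns tested. The median log2 change was 0.64 for ratios, beside 0.59 over all retained introns, and 0.25 for spliced pairs, beside 0.24 over all introns. The RNA binding protein how, a partner of Sxl on msl-2 RNA, had 37 and 37 spliced pairs in its most read intron in wild type and 183 and 102 in the mutants (log2 change 1.65, SE 0.426, adjusted p = 0.121 in limma). The helicase mle, a subunit of the dosage compensation complex, had 18 and 11 in wild type and 35 and 34 in the mutants (log2 change 1.05, SE 0.361, adjusted p = 0.158 in limma). Ythdc1, a reader of N6-methyladenosine that is needed for Sxl splicing, had 31 and 48 in wild type and 25 and 31 in the mutants, and tra2 had 29 and 25 in wild type and 44 and 53 in the mutants. Neither passed the test, with adjusted p of 0.389 and 0.301 in limma.

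Likeness was measured between the most read intron of each gene, as the Euclidean distance of centred log2 spliced pairs over the 4 libraries, among 22 pathway genes. The genes nearest to Sxl were msl-3, at 0.747, Ythdc1, at 0.864, and nito, at 1.27. Nearest to tra were Ythdc1, at 0.625, Spf45, at 0.95, and msl-3, at 1.19. Nearest to msl-2 were dsx, at 0.72, how, at 1.44, and mle, at 1.64. With 4 libraries and few pairs, as for dsx and nito, these distances describe the libraries only.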

How the data were processed

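RNA of whole larvae was sequenced in 4 libraries. Per the deposited readme and the submitters' processing notes, the authors aligned reads with TopHat2 2.0.8 and Bowtie2 2.1.0 to dm3, ran MISO 0.4.8 on each pairing of libraries and made exon usage tables with DEXSeq 1.0.2 or later. Per the file headers, the authors' event tables hold a posterior mean fraction for isoform 1 (retained or included) with its interval, rounded to 0.01, a Bayes factor, which is a ratio of evidence, and other values that give read pairs by isoform class. Per the file headers, the exon tables deposited hold a log2 fold, a p-value before and after adjustment, and a normalized mean, which is a signal averaged over libraries. Repeated values of a library agreed in all 119236 comparisons.

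For events with at least 20 isoform-specific pairs in every library, log2((first + 0.5)/(second + 0.5)) was modelled by group in limma 3.58.1 (R 4.3.3), weighted by counting error, with Benjamini-Hochberg adjustment within an event type. Spliced pairs of introns with at least 20 in 2 libraries were scaled to their total and fitted with limma's trend option. An adjusted p under 0.05 was a call. Both fits were tested on simulated data with changes of 4 log2 units. The simulated spread between libraries, an SD of 0.5 log2 units, was not matched to these data. There the ratio fit of retained introns found only a small part of the changed events at this minimum of pairs. A ratio that was not called is therefore not shown to be unchanged. Single values were tested with exact permutation tests in SciPy 1.17.1. Events were matched to genes of dm6 by intron lengths and displacement, and no coordinates were converted. Members and gene lists were chosen with earlier results of these data known. All events of the 3 genes are reported, in full those with 20 specific pairs in every library and the sex-specific features. Alternatives were other pseudocounts, minimum counts, scalings, weights and thresholds, a replicate term and leaving out each library.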

Additional observations from a re-analysis of the deposited data

How the results depend on the processing

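The count of members called by isoform ratio, 0, moved to 1 with the logit of the posterior mean, where the 3544-base Sxl intron had an adjusted p of 0.0395, and stayed at 0 under the other alternatives. The count of introns called by spliced pairs, 0, ran from 0 to 3 when a library was left out, with 2 without wild type replicate 1 and 3 without wild type replicate 2. The lone wild type library is then assumed to vary like the mutants, and 54.3% and 36.8% of all introns are called, so these counts are read against that background. The Bayes factor count was 0 under all of its alternatives. Bins called in the mutant table went from 2 to 0 at an adjusted p of 0.01 and to 3 at 0.1, the stage tables from 0 to 1 at 0.1, and pathway genes with a called bin from 2 to 1 at 0.01. With replicate number as a block, 0 members were called by either measure, and the deviations of same-numbered libraries correlated at -0.002 for isoform ratios and -0.016 for spliced pairs. Of 108 values of single events under alternatives, 94 kept direction and side of the threshold, 6 passed it and 8 turned direction, all for events with an adjusted p above 0.6 in the reported fit. The early exon event went from -0.34 to -2.304 with a pseudocount of 0.1, 0.17 with a pseudocount of 1, 0.027 without weights, 0.196 with the logit, and from -0.711 to 0.766 when a library was left out. The intron before the 190-base male exon went from 0.138 to -0.424 without weights and from -1.589 to 0.725 when a library was left out, and that of the 172-base form from -0.398 to 0.931. The ratio of inclusion to skipping of the 190-base male exon ranged from 1.32 to 3.77 on the log2 scale over its alternatives, with adjusted p from 0.2 to 0.57. The tra and msl-2 first introns had 6 to 22 joins or pairs a library, which limits their precision. The cause of these shifts was not tested.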
